A study of Mus musculus with 6 samples.

Results

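The cytochrome P450 genes of the mouse were followed in the inguinal fat pad, a subcutaneous depot, on 6 Agilent 1-colour arrays. Members were non-control probes whose gene name on the array is Cyp followed by a family number, a subfamily letter and a gene number, with the flag for a signal well above background set on 3 or more of the 6 arrays. Of 112 probes for 87 such genes, 64 probes for 54 genes passed, out of 38819 passing probes of 55681 in all. The detection flags of these same arrays chose the members, so detection is given here as a description only.

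All samples were from adult male C57BL/6J mice. Those titled DIO_CR_WR were 2 months old when they started a diet in which fat gave 60% of the energy, which lasted 1 month. Calorie restriction followed for about 3 weeks, to the body weight of chow-fed mice of the same age, and the mice then ate the fatty diet freely while they regained weight. Mice titled DIO ate chow during both of those periods and the fatty diet freely in the last one, so both groups were on the fatty diet when the fat was taken. The protocol gives the name DIO to the mice that regained weight and CTR to the others. The groups here follow the sample titles, so the direction of every comparison rests on the titles. There were 3 arrays in each group, with age labels of 6 to 8 months for DIO and 9 to 11 months for DIO_CR_WR, 1 value per sample and no overlap. Group and labelled age move together. Within each group the label rises by 1 month with each replicate number, and whether the labels are true ages is not known. A fit with labelled age as a covariate thus compares the groups at ages that they do not share. Whether each sample came from 1 animal or a pool is not stated, so p-values measure the spread between these samples. Because this is bulk tissue, fewer cells of a type and less RNA per cell cannot be told apart.

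Cytochrome P450 enzymes are heme proteins that insert an oxygen atom into lipids, hormones, vitamins and foreign compounds. The microsomal enzymes draw their electrons from the reductase Por, and the mitochondrial ones from ferredoxin. Liver holds most of the drug-metabolising members, while fat tissue uses others to hydroxylate sterols, retinoids and fatty acids and to turn arachidonic acid into epoxides.

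The array probes shown have 60 bases, of which 30 are printed 5′ to 3′, as deposited, for the genes on which the results turn. Positions are those of the whole probe on build mm9 as the array files give them, and exon or UTR annotation of that build was not used here. Cyp7b1 is shown because it had the smallest p of all members, on the minus strand at chr3:17972286-17972345.
Cyp7b1: ttggttgagatcaatccagttggttttggg
Cyp4f39 had the next smallest p and the largest fold, on the plus strand at chr17:32629616-32629675.
Cyp4f39: acaagactccacccttgggatttgattcca
Cyp1b1 followed, on the minus strand at chr17:80106547-80106606.
Cyp1b1: actacattaagcagatagatcaccatgtat
Cyp4a10 and Cyp4a31 are shown because capitals mark the end of a run of 34 bases that their probes share, so their signals are not independent. The Cyp4a31 probe lies on the plus strand at chr4:115251553-115251612, and the Cyp4a10 probe has no position in the file.
Cyp4a10: TTCCCTCCTTTCTGCAATAAAGttcccagt
Cyp4a31: TTCCCTCCTTTCTGCAATAAAGgtccaagt
Cyp2u1 is shown because its 3 probes disagree, all on the minus strand of chromosome 3. The first, at chr3:130996343-130996402, is the one that stands for the gene, and capitals mark part of a repeat of 32 bases. The second spans 392 bases at chr3:130997965-130998356, and the last lies at chr3:131000939-131000998.
Cyp2u1 first: tatcattgGTGTGTGTGTGTGTGTGTGTGT
Cyp2u1 second: tgtccatggtggtgccgctcgccattcctc
Cyp2u1 last: tacctcccctttggtccatttaaggagcta

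The repeat-bearing Cyp2u1 probe shared a run of at least 20 bases with 57 probes of 57 other genes. Of the 63 member probes that entered the tests, 55 shared no such run with a probe of another gene. Runs shared between different Cyp genes were found only for Cyp4a10 and Cyp4a31, at this run length.

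Signals below are relative to each array: 100 is the 75th percentile of that array's non-control probes. A log2 fold change is DIO_CR_WR minus DIO with its standard error from limma, over 3 arrays in each group, and levels are not compared between probes. The arrays differed in ways that went with the groups. The 75th percentile itself was 4108 to 4452 intensity units in DIO and 5403 to 6370 in DIO_CR_WR, and 68.3% to 79.3% against 51.7% to 65.8% of probes were above background. DIO replicate 1 and all 3 DIO_CR_WR arrays lie on slide 1, and DIO replicates 2 and 3 on slide 2. The adipocyte marker Adipoq had signals of 2634 to 3211 and 2007 to 4290.2, so it was bright on all 6 arrays.

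Of the 112 member probes on the array, the number above background varied from array to array. The counts were 63, 81 and 76 on DIO replicates 1 to 3, and 40, 59 and 64 on the DIO_CR_WR arrays, so 1 DIO_CR_WR array exceeded the lowest DIO array. Of the 54 genes, 35 were above background on all 6 arrays. A further 12 were detected on 3 DIO and 2 DIO_CR_WR arrays, 2 on 3 and 1, and Cyp2a4, Cyp2c37 and Cyp46a1 on 3 DIO arrays and no DIO_CR_WR array. Cyp11a1 was detected on 2 DIO arrays and 1 DIO_CR_WR array, and Cyp2c66 on 1 and 2. The 3 genes detected in DIO only passed through the group in which they are high, so their being lower in DIO_CR_WR is not counted as support. Of the 12 genes, 8 were lower in DIO_CR_WR, and of the 2, Cyp11b2 was lower and Cyp3a13 higher. Just inside the limit, 6 probes were detected on 3 arrays, with signals of 0.58 to 6.13 and a median of 1.76. Just outside it, 13 probes were detected on 2 arrays, with signals of 0.42 to 6.41 and a median of 1.23, among them the only probes for Cyp19a1, the aromatase that makes estrogen, and Cyp26c1.

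Roles were assigned mostly by family or subfamily name, so the activity of a single gene may differ from its role. By role, 20 of 33 drug and xenobiotic genes, 11 of 19 genes of the Cyp2c and Cyp2j subfamilies, called arachidonic acid epoxygenases here, and 12 of 16 fatty acid hydroxylases were measured. The other measured genes were 4 of 6 for cholesterol and bile acids, 4 of 6 for steroid hormones, 2 of 6 for vitamins A and D, and the orphan Cyp20a1. Genes that did not pass include Cyp7a1 and Cyp8b1 of liver bile acid synthesis, Cyp1a2, Cyp24a1 and Cyp27b1 of vitamin D, Cyp26a1, and every Cyp3a gene except Cyp3a13.

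No member passed an adjusted p under 0.05 in limma's test with Benjamini-Hochberg adjustment, against a background of 0% of 26203 genes. The smallest adjusted p of a member was 0.109, which was also the smallest of any gene. Members with an unadjusted p under 0.05 are called nominally higher or lower from here on. In DIO_CR_WR 8 were nominally higher (14.8%, background 5.38%) and 8 nominally lower (14.8%, background 21.8%). The arrays of the groups did not overlap for 11 members that were higher (20.4%, background 7.18%) and 10 that were lower (18.5%, background 26.8%). Both counts of lower members include Cyp2a4, Cyp2c37 and Cyp46a1, the 3 genes that passed the filter through DIO only and that give no support for a decrease. The share of higher genes was thus above the background and the share of lower ones below it, and no test of that difference was made.

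The direction of these counts depended on how arrays were scaled. The median log2 fold change of all genes was −0.20 and that of the members 0.02, a difference of 0.22. Scaling to the E1A spike-ins, RNAs added at labelling, raised every log2 fold change by 0.50, to a median of 0.30 over all genes, and left the difference at 0.22. It gave 21 of the 54 members nominally higher and 3 nominally lower, against a background of 21% and 2.94%, so both shares were above the background. Of the nominal calls, 87.5% were higher among the members and 87.7% among all genes. Normexp with quantile normalization gave 13 and 5 (background 7.81% and 15.4%), quantile normalization 12 and 4 (7.12% and 14.1%), and median centring 12 and 6 (6.95% and 15.2%). Of the 54 members 11 changed sign under spike-in scaling, and 1 to 3 under the other scalings, so members with small changes have no settled direction.

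Slide and single arrays also moved the counts. Slide 2 holds only DIO arrays, so every value with slide as a block below is the difference between the 3 DIO_CR_WR arrays and DIO replicate 1 alone. With slide as a block, 5 members were nominally higher and 2 lower (background 4.58% and 6%), and within slide 1 alone 5 and 3 (background 5.44% and 5.11%). The difference between the member median and that of all genes was 0.21 in both, 0.075 without DIO replicate 1 and 0.040 with labelled age as a covariate. Without DIO replicate 1 the groups lie on different slides. In that setting 10 members were higher and 13 lower (background 8.73% and 28.6%), and 7 passed an adjusted p under 0.05, beside 4023 of the 26203 genes (15.4%). Without DIO replicate 2 only 4 were lower, and the background of lower genes fell to 9.35%. Without DIO_CR_WR replicate 2 only 5 were higher, and the background of higher genes fell to 3.69%.

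Detection split the members further. The 35 genes above background on all 6 arrays had a median log2 fold change of 0.17, beside −0.14 for all genes with that detection. The 19 on 3 to 5 arrays had a median of −0.58, beside −0.54. Of the 8 nominally higher members 7 were on all 6 arrays, and of the 8 lower ones 3 were. Over all genes, 1251 of the 1410 nominally higher ones and 3591 of the 5711 lower ones were on all 6 arrays.

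**Figure D1:**
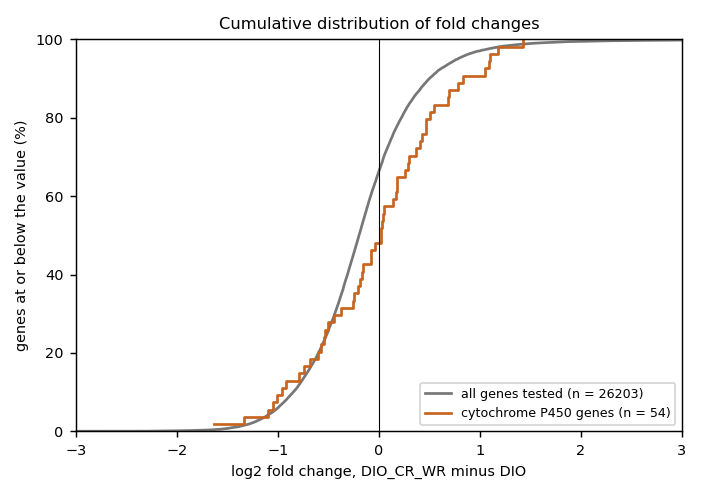
Cumulative percentage of genes (vertical axis) at or below each log2 fold change, DIO_CR_WR minus DIO (horizontal axis), for all 26203 genes tested (grey) and the 54 cytochrome P450 genes (orange). The medians were −0.20 and 0.02 with scaling to the 75th percentile, and spike-in scaling moves both lines to the right by 0.50, which turns the sign of the grey median.

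**Figure D2:**
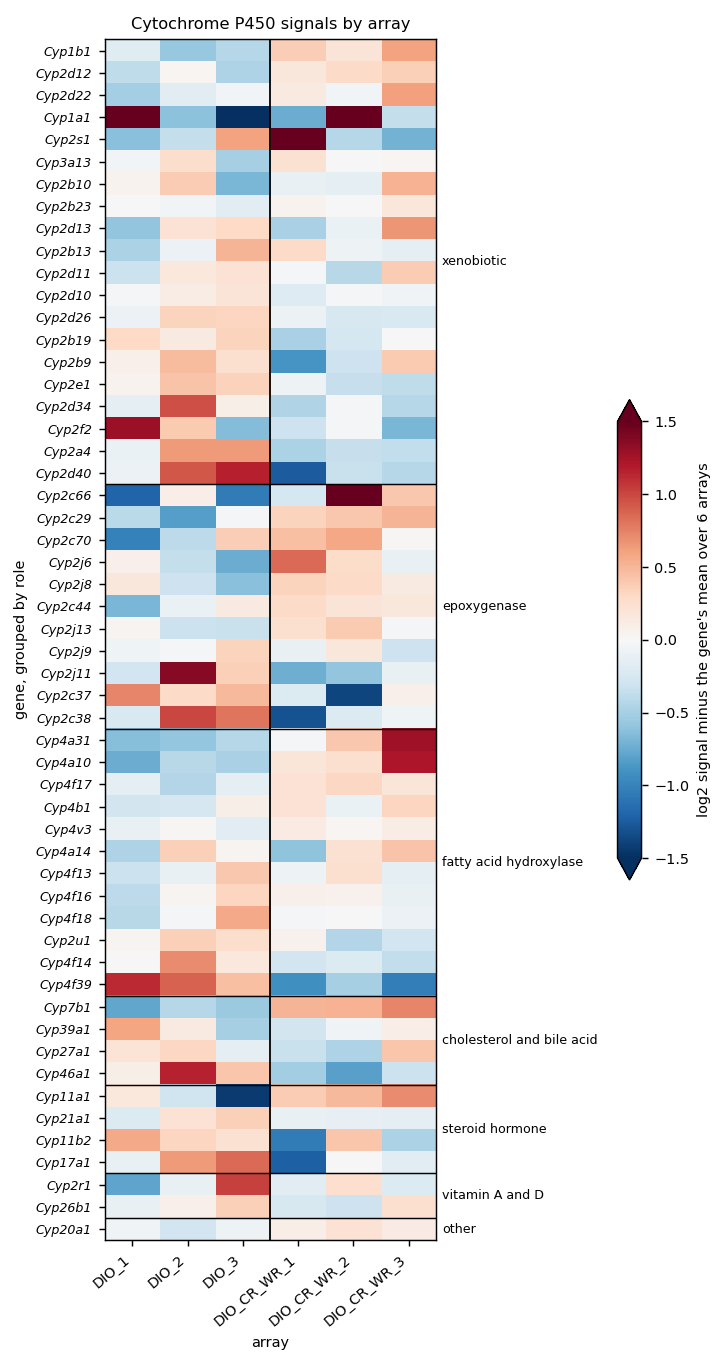
Signal of each of the 54 cytochrome P450 genes (rows, grouped by role and ordered by fold change) on each array (columns), as the log2 signal minus the gene's mean over the 6 arrays. Colours end at 1.5 in each direction, so larger deviations look alike. Cyp7b1 and Cyp4f39 separate the groups on every array, whereas Cyp1a1, Cyp2s1 and Cyp2r1 stand out on single arrays.

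Among the 4 genes of cholesterol and bile acid metabolism, Cyp7b1 was higher in DIO_CR_WR, and the groups of Cyp27a1 and Cyp39a1 overlapped. The last, Cyp46a1, was detected in DIO only and is not counted as a decrease. Cyp7b1 hydroxylates oxysterols such as 25-hydroxycholesterol. Its signal was 7.68, 9.84 and 8.96 on the DIO arrays and 18.8, 19 and 21.8 on the DIO_CR_WR arrays. Every DIO_CR_WR array was above every DIO array by a wide margin compared with the spread within either group. The log2 fold change was 1.18 ± 0.16, or 2.26-fold (unadjusted p = 0.000276, adjusted p = 0.109). It was 1.37 with slide as a block and 1.08 to 1.26 when single arrays were left out, and positive under every scaling.

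Ch25h, which makes 25-hydroxycholesterol, overlapped between the groups, with a log2 fold change of 0.16 ± 0.23. Hsd3b7, which acts after Cyp7b1 in the same route, also overlapped, with −0.10 ± 0.15, a value that spike-in scaling turns positive. Both were picked out of their list after the values were seen. In the list of steroid and oxysterol partners, 0 of 18 measured genes were nominally higher and 2 lower (background 5.38% and 21.8%). Those were Hsd3b1, which makes progesterone from pregnenolone, with −1.23 ± 0.38, and the mitochondrial dehydrogenase Hsd17b10, with −0.62 ± 0.21. Hsd3b1 was dim, with 1.59, 2.00 and 2.60 in DIO and 1.31, 0.51 and 0.97 in DIO_CR_WR. Its value was −0.62 with normexp and quantile normalization.

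Cyp46a1 is the cholesterol hydroxylase of brain neurons. Its signal was 2.15, 4.48 and 2.70 on the DIO arrays and 1.41, 1.15 and 1.62 on the DIO_CR_WR arrays, where it was not well above background. By the measured means it was 2.15-fold lower in DIO_CR_WR (adjusted p = 0.126). It passed the filter through DIO only, so this gives no support for a decrease. Its log2 fold change went from −1.1 to −0.64 with slide as a block and to −0.37 with normexp and quantile normalization.

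Cyp27a1, the mitochondrial sterol hydroxylase, had signals of 281, 301 and 222 in DIO and 193, 176 and 325 in DIO_CR_WR. The groups overlapped, and the log2 fold change of −0.26 ± 0.27 became 0.25 with spike-in scaling. Cyp39a1, another oxysterol hydroxylase, had signals of 162, 119 and 76.7 against 89.0, 104 and 116. Its log2 fold change of −0.16 ± 0.29 became −0.67 with slide as a block, and turned to 0.10 without DIO replicate 1, to 0.11 with normexp and quantile normalization and to 0.35 with spike-in scaling.

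The fatty acid hydroxylases held both the largest decrease and a pair of related genes that were higher. Of 12 measured genes, 3 were nominally higher and 2 lower (background 5.38% and 21.8%), and their median lay 0.23 above that of all genes. Cyp4f39 is the mouse counterpart of the human enzyme that hydroxylates very long fatty acids for the lipids of the skin barrier. Its signal was 39.6, 33.8 and 24.9 in DIO and 9.67, 12.9 and 8.90 in DIO_CR_WR. The lowest DIO array was well above the highest DIO_CR_WR array. The difference was a log2 fold change of −1.64 ± 0.24, or 3.11-fold lower (adjusted p = 0.109), with −1.94 with the block and −1.49 to −1.82 without single arrays.

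Markers of keratin epithelium, the tissue in which Cyp4f39 is best known, were lower in part. Of 7 measured keratin epithelium markers, 2 were nominally lower and none nominally higher (background 21.8% and 5.38%). The lower ones were Krt19 with −1.12 ± 0.26 and Cdh1 with −0.93 ± 0.32, and Cdh1 was dim, at 1.36 to 2.88 in DIO and 0.82 to 1.33 in DIO_CR_WR. Krt10, the brightest and the only marker above 0, had 0.41 ± 0.27. The summed signal of the list was 135 to 149 in DIO and 112 to 146 in DIO_CR_WR, and Krt8 did not pass the filter. Their part in the Cyp4f39 result was not tested.

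The other Cyp4f genes lay on both sides of 0. Along chromosome 17, Cyp4f17, whose probe starts at 32665243, had 117, 95.1 and 117 in DIO and 149, 159 and 146 in DIO_CR_WR, with no overlap and a log2 fold change of 0.47 ± 0.16 (adjusted p = 0.139). Further along, Cyp4f16 had 0.02 ± 0.22 and Cyp4f13 0.02 ± 0.23. Cyp4f14 was nominally lower, as Cyp4f39 was, with 3.90, 6.36 and 4.33 against 3.18, 3.39 and 3.00, no overlap and a log2 fold change of −0.58 ± 0.22. It was above background on 5 arrays, and its value was −0.29 with slide as a block, −0.13 with normexp and quantile normalization and −0.076 with spike-in scaling. Cyp4f18 on chromosome 8, with 2 probes of opposite sign, had −0.08 ± 0.26. So genes of 1 cluster on chromosome 17 spread from −1.64 to 0.47, and the sign of Cyp4f18 turned under spike-in scaling and median centring.

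Cyp4a10 and Cyp4a31 hydroxylate the end carbon of medium and long fatty acids, and Cyp4a10 is a textbook target of the nuclear receptor PPARα. Cyp4a10 had signals of 4.62, 5.82 and 5.54 in DIO and 8.76, 9.14 and 18 in DIO_CR_WR. Cyp4a31 had 4.19, 4.38 and 4.83 against 6.39, 8.64 and 15.7. In both, every DIO_CR_WR array was above every DIO array, and DIO_CR_WR replicate 3 stood well above the rest of its group.

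The log2 fold changes were 1.09 ± 0.31 for Cyp4a10 and 1.1 ± 0.33 for Cyp4a31 (adjusted p = 0.127 and 0.131). Without DIO_CR_WR replicate 3 they were 0.75 and 0.74. Of the 3 Cyp4a10 probes, the one with no run of 20 bases shared with Cyp4a31 gave 1.40 ± 0.48, from signals of 2.36, 2.53 and 2.08 against 3.97, 4.15 and 13.7. With labelled age as a covariate Cyp4a10 had 0.11 and Cyp4a31 −0.03. Cyp4a14, which is in the same cluster and also a PPARα target, had 0.04 ± 0.34, with 3.20, 5.68 and 4.54 against 2.91, 5.19 and 5.95.

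Ppara itself was lower in DIO_CR_WR, with 150, 155 and 149 against 83.5, 73.1 and 50.3. Its log2 fold change was −1.17 ± 0.22 (adjusted p = 0.110), with −1.15 with slide as a block. In the list of nuclear receptors that regulate P450 genes, 1 of 19 measured genes was nominally higher and 8 lower (background 5.38% and 21.8%). Rxrg, a partner receptor of PPARα, had −0.78 ± 0.15 and the repressor Nr0b2 −0.89 ± 0.27, and Nr1i2, Nr1h4 and Hnf4a, receptors best known from liver, did not pass the filter.

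The 3 Cyp2u1 probes gave different answers. The probe with the repeat had signals of 3213, 4026 and 3764 in DIO and 3271, 2316 and 2568 in DIO_CR_WR, with a log2 fold change of −0.44 ± 0.19 that spike-in scaling turned to 0.06. The second had −0.50 ± 0.27. The last, the one designed on the reference transcript, had 29.2, 12.2 and 12.3 against 35.3, 37.6 and 23.8, with 0.95 ± 0.39. So no direction is given for Cyp2u1, an enzyme that hydroxylates arachidonic acid. Cyp4b1 had 448, 455 and 577 against 630, 507 and 679, groups that overlapped, and a log2 fold change of 0.29 ± 0.19. Cyp4v3 had 346, 376 and 332 against 407, 380 and 401, which did not overlap, with 0.18 ± 0.14 and an adjusted p of 0.441.

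**Figure D3:**
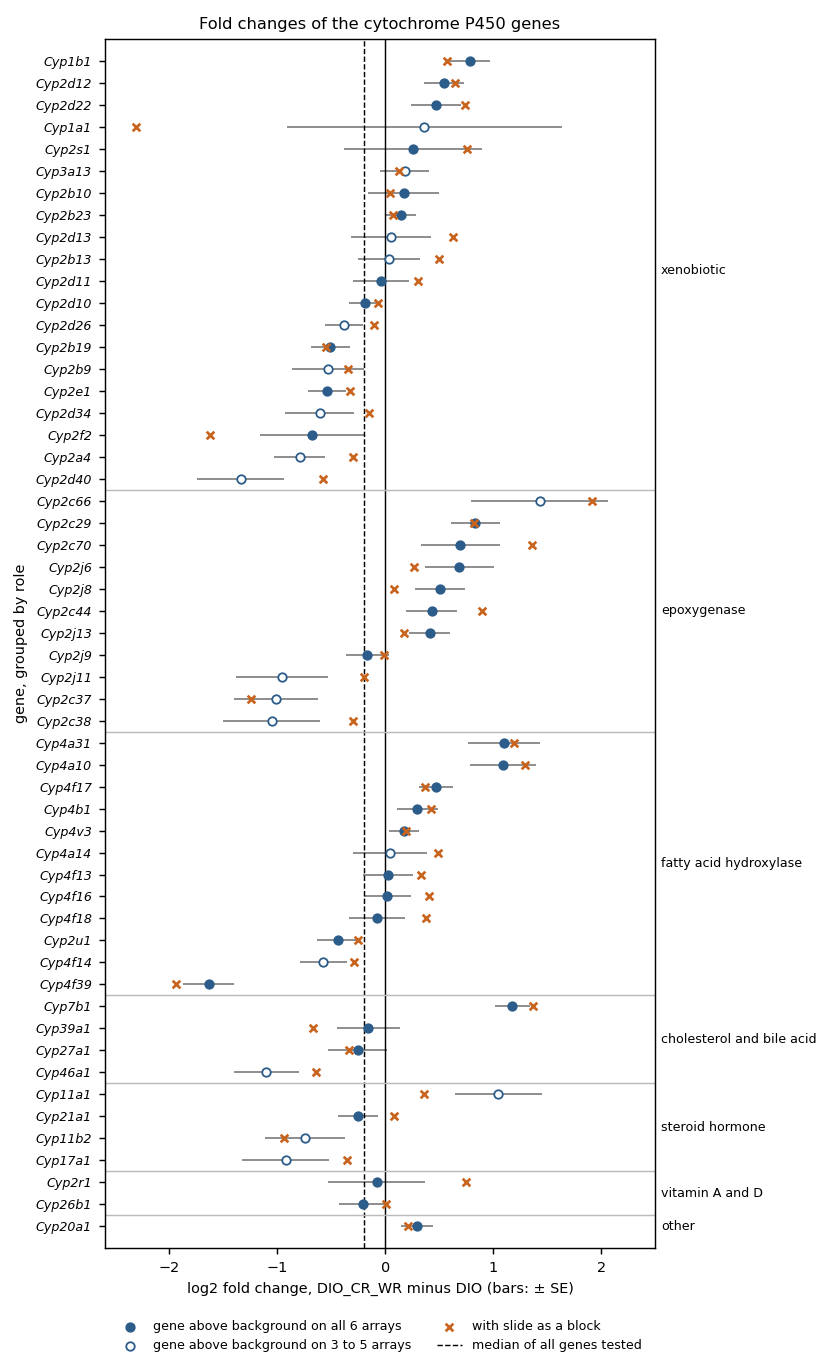
Log2 fold change, DIO_CR_WR minus DIO (horizontal axis), of the 54 cytochrome P450 genes by role. Points are estimates with bars of 1 standard error, open where the gene was above background on 3 to 5 arrays, and crosses are estimates with slide as a block, which set DIO replicate 1 alone against DIO_CR_WR. The dashed line is the median of all genes, −0.20, and spike-in scaling would shift all points by 0.50. With the block Cyp7b1 is at 1.37 and Cyp4f39 at −1.94, while Cyp1a1 moves from 0.36 to −2.31.

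Drug and xenobiotic genes went both ways. Of 20 measured genes, 2 were nominally higher and 4 lower (background 5.38% and 21.8%), with a median 0.20 above that of all genes. The 4 include Cyp2a4, which was detected in DIO only. Cyp1b1 hydroxylates estradiol and aromatic hydrocarbons and is induced by the aryl hydrocarbon receptor, Ahr. Its signal was 141, 108 and 118 in DIO and 206, 182 and 242 in DIO_CR_WR, with no overlap. That is a log2 fold change of 0.78 ± 0.18 (adjusted p = 0.119) and 0.57 with slide as a block, and it stayed positive under every scaling.

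Ahr was higher too, with 70.3, 39.1 and 47.3 against 119, 112 and 111, and a log2 fold change of 1.17 ± 0.24 (adjusted p = 0.115) that was 0.70 with slide as a block. In the Ahr pathway list, Ahr was the only 1 of 10 measured genes that was nominally higher and Hsp90ab1, a chaperone of the receptor, the only 1 nominally lower, with −0.93 ± 0.16. Nqo1, a target of the receptor, had −0.65 ± 0.27. The background for this list too was 5.38% higher and 21.8% lower.

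Cyp1a1, the best known target of Ahr, varied between arrays of the same group. Its signal was 32.8, 3.82 and 1.1 in DIO and 3.50, 18.3 and 4.56 in DIO_CR_WR, so DIO replicate 1 and DIO_CR_WR replicate 2 were high. Its log2 fold change was 0.36 ± 1.28, the largest standard error of any member. It became −2.31 with the block, −0.75 without DIO replicate 3, −0.37 without DIO_CR_WR replicate 2 and 1.70 without DIO replicate 1, so no direction is given.

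Cyp2e1 oxidises ethanol, acetone and fatty acids. Its signal was 1486, 1923 and 1817 in DIO and 1357, 1125 and 1098 in DIO_CR_WR, with no overlap. The log2 fold change was −0.54 ± 0.18, or 1.46-fold lower (adjusted p = 0.135), and −0.32 with slide as a block. Its other probe gave −0.40 ± 0.17, and spike-in scaling brought the main value to −0.04.

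Cyp2d genes, which lie in 1 cluster on chromosome 15, did not move as a block. Cyp2d40 had 3.30, 6.71 and 7.87 in DIO and 1.48, 2.79 and 2.61 in DIO_CR_WR, with a log2 fold change of −1.34 ± 0.40 (adjusted p = 0.131). It was −0.58 with slide as a block, and it was above background on 5 arrays. Cyp2d12 had 104, 137 and 97.4 against 152, 164 and 173, with 0.54 ± 0.18. It is named although the rule for named genes did not pick it. The other Cyp2d genes lay between −0.61 for Cyp2d34 and 0.47 for Cyp2d22, and their groups did not overlap for Cyp2d10 and Cyp2d26, whose signs turned under spike-in scaling. The sign of Cyp2d11, at −0.038, turned under each of the 4 other scalings.

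Cyp2a4, which hydroxylates testosterone, had 1.76, 2.94 and 2.95 in DIO and 1.36, 1.49 and 1.46 in DIO_CR_WR, where it was not well above background. By the measured means it was 1.73-fold lower (adjusted p = 0.131), which gives no support for a decrease, since it passed the filter through DIO only. The value on the log2 scale went from −0.79 to −0.30 with slide as a block, −0.34 with normexp and quantile normalization and −0.29 with spike-in scaling. Cyp2f2, known for oxidising naphthalene in the airway, had 43.2, 23.2 and 11.3 against 14.3, 17.4 and 11.1. These groups overlapped. The log2 fold change of −0.68 ± 0.48 was −1.62 with slide blocked, −0.21 without DIO replicate 1 and 1.05 with age as a covariate.

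A pair of further genes of this role stood out after the values were seen. Cyp2b19 had 87.8, 78.5 and 90.6 against 51.0, 59.7 and 71.1, with no overlap and a log2 fold change of −0.51 ± 0.18. Cyp2s1 had 3.89, 4.69 and 9.16 against 17.3, 4.46 and 3.68, so its 0.26 ± 0.64 rests on DIO_CR_WR replicate 1. The remaining Cyp2b genes and Cyp3a13 lay between −0.53 for Cyp2b9 and 0.18 for Cyp3a13, whose 2 probes differed in sign.

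**Figure D4:**
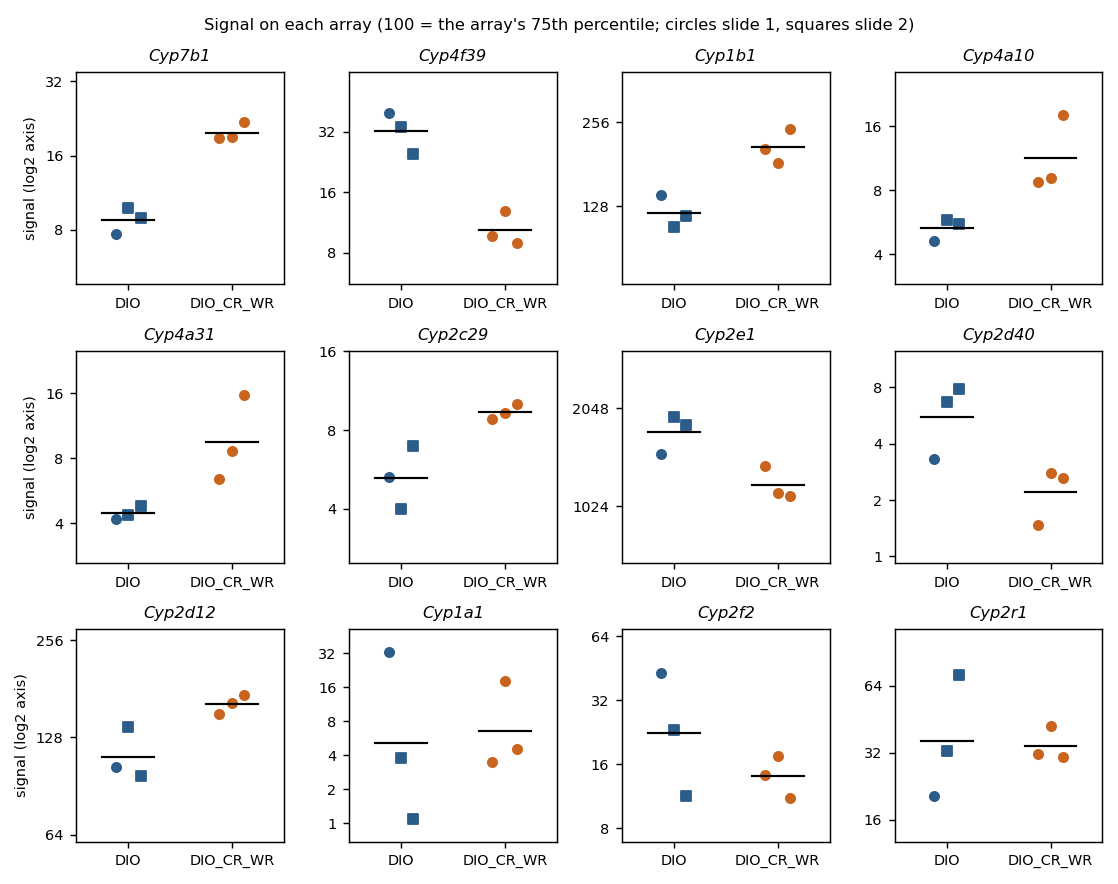
Signal of 12 cytochrome P450 genes on each array (log axis, 100 is the array's 75th percentile), with circles for slide 1, squares for slide 2 and a line at the mean of the log2 signals of each group of 3 arrays. Cyp7b1, Cyp4f39 and Cyp1b1 do not overlap between groups, while Cyp1a1, Cyp2f2 and Cyp2r1 spread widely within DIO. Spike-in scaling would turn the sign of Cyp2r1.

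The median log2 fold change of the arachidonic acid epoxygenases was 0.43, which lay 0.63 above that of all genes. With slide as a block it was 0.17, below the 0.37 of the fatty acid hydroxylases, whose median without the block was 0.03. Of 11 measured genes, 1 was nominally higher and 1 lower (background 5.38% and 21.8%). The lower gene, Cyp2c37, was detected in DIO only. Cyp2c29 had 5.31, 3.98 and 6.93 in DIO and 8.84, 9.32 and 10.05 in DIO_CR_WR, with no overlap. Its log2 fold change was 0.83 ± 0.23 (adjusted p = 0.126), and 0.82 with slide as a block.

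Cyp2c37 had 2.5, 1.83 and 2.11 against 1.30, 0.58 and 1.58, and was not well above background on any DIO_CR_WR array. By the measured means it was 2.02-fold lower (adjusted p = 0.165), which gives no support for a decrease, since it passed the filter through DIO only. On the log2 scale it went from −1.01 to −0.57 without DIO_CR_WR replicate 2 and to −0.26 with normexp and quantile normalization. Cyp2c38 had 2.99, 6.96 and 6.09 against 1.40, 3.03 and 3.34, groups that overlapped. With the block its −1.05 ± 0.45 became −0.30, and it was −0.66 without DIO_CR_WR replicate 1. So the Cyp2c cluster on chromosome 19 held genes on both sides of 0.

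Cyp2c44, now named Cyp2c23, had 37.6, 56.4 and 66.2 against 73.3, 68.6 and 67.9. The DIO_CR_WR arrays were all above the DIO arrays, though DIO replicate 3 came close to them. The log2 fold change was 0.43 ± 0.23, and 0.90 with slide as a block. Cyp2c70 had 9.47, 14.6 and 24.7 against 26.1, 28.5 and 19.3, with 0.69 ± 0.37, and 1.36 with slide as a block. Cyp2c66 had 0.67, 1.63 and 0.74 against 1.27, 6.13 and 2.02. Its 1.43 ± 0.64 was 0.78 without DIO_CR_WR replicate 2, the highest array.

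Of the 5 Cyp2j genes, 0 were nominally higher or lower. Cyp2j8 had 259, 185 and 149 against 290, 281 and 253, with an overlap of 1 DIO array and a log2 fold change of 0.51 ± 0.23 that was 0.08 with slide as a block. Cyp2j6 had 0.68 ± 0.32 and Cyp2j13 0.41 ± 0.19, which became 0.26 and 0.17 with the block. The other, dimmer Cyp2j6 probe had 0.07 ± 0.59. Cyp2j11 had −0.96 ± 0.43, and −0.20 with the block, and Cyp2j9 had −0.17 ± 0.20, a sign that spike-in scaling turned.

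Enzymes beside the epoxygenases in eicosanoid metabolism also went both ways, with 5 of 19 measured genes nominally higher and 2 lower (background 5.38% and 21.8%). The prostaglandin D synthase Hpgds had 33.7, 30.1 and 66.9 against 83.0, 136 and 96.5, with a log2 fold change of 1.34 ± 0.35. The lipoxygenase Alox5 had 0.75 ± 0.21 and the prostaglandin E synthase Ptges2 −0.66 ± 0.16. Ephx2, the soluble hydrolase that removes epoxides of arachidonic acid, had −0.18 ± 0.24 and overlapped, and its sign turned with spike-in scaling. It was picked out of the list after the values were seen. Of the P450s outside the naming pattern, the thromboxane synthase Tbxas1 had 0.59 ± 0.29, the prostacyclin synthase Ptgis −0.34 ± 0.28 and the sterol demethylase Cyp51 −0.23 ± 0.31, the last 2 turning positive with spike-in scaling, and none was nominally higher or lower.

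The steroid hormone genes were dim in this tissue. Cyp11a1, the side-chain cleavage enzyme that starts steroid synthesis, had 2.12, 1.54 and 0.70 in DIO and 2.46, 2.65 and 3.09 in DIO_CR_WR, with no overlap. It was above background on only 3 arrays, and its log2 fold change of 1.05 ± 0.40 was 0.36 with the block and 0.59 without DIO replicate 3. Cyp17a1, which makes androgen precursors, had 3.49, 5.87 and 6.78 against 1.61, 3.75 and 3.36, with an overlap and −0.92 ± 0.40, or −0.35 with the block and −0.54 without DIO_CR_WR replicate 1.

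Cyp11b2, the aldosterone synthase, had 3.85, 3.27 and 3.05 against 1.26, 3.47 and 1.87, with −0.75 ± 0.37, and −0.40 without DIO_CR_WR replicate 1. Cyp21a1, the adrenal steroid hydroxylase, had 9.77, 13.1 and 14.4 against 10.4, 10.3 and 10.2, and its −0.25 ± 0.19 turned positive with slide as a block (0.08) and with spike-in scaling (0.25). Of 8 markers of adrenal and gonadal steroid cells, 7 were found on the array by name, and Insl3 and Lhcgr were not measured. Star was at 1.14 to 1.74. The 6 measured markers include the members Cyp11a1 and Cyp17a1. The summed signal of the 6 was 291 to 393 in DIO and 358 to 480 in DIO_CR_WR. Most of that sum is Mc2r, the corticotropin receptor, with 257 to 365 and 335 to 451, groups that overlapped.

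Of the vitamin genes, Cyp26b1, which clears retinoic acid, had 171, 194 and 236 in DIO and 156, 149 and 218 in DIO_CR_WR. The groups overlapped, and its −0.21 ± 0.22 was 0.00 with slide as a block and 0.29 with spike-in scaling. Cyp2r1, which performs the first hydroxylation of vitamin D, had 20.4, 32.6 and 71.6 against 31.5, 41.9 and 30.5, so the DIO arrays spread more widely than the DIO_CR_WR arrays. Its −0.08 ± 0.45 was 0.75 with the block, 0.41 without DIO replicate 3 and −0.49 without DIO replicate 1, and spike-in scaling and median centring turned it positive. In the retinoid list, 0 of 16 measured genes were nominally higher and 1 lower (background 5.38% and 21.8%), Aldh1a1 with −0.56 ± 0.19.

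The orphan Cyp20a1 had 242, 207 and 239 against 271, 293 and 277, with no overlap and a log2 fold change of 0.29 ± 0.15 (adjusted p = 0.240).

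The genes that P450 enzymes depend on for electrons and heme were examined in a pair of lists. Of 12 measured electron donors and partners, 0 were nominally higher and 2 lower. Por had 836, 1012 and 1251 in DIO and 657, 686 and 700 in DIO_CR_WR, with no overlap and a log2 fold change of −0.58 ± 0.19 (adjusted p = 0.135) that was −0.30 with slide as a block and −0.08 with spike-in scaling. The mitochondrial ferredoxins Fdx1l and Fdx1 had −0.37 ± 0.15 and −0.41 ± 0.17, both turned positive by spike-in scaling. Of 13 genes of heme synthesis and breakdown, 0 were nominally higher and 3 lower, with −0.57 ± 0.16 for Fech, which inserts the iron, −0.57 ± 0.21 for Urod and −0.67 ± 0.26 for Alad. The medians of these 2 lists lay 0.01 above that of all genes, and the background shares were 5.38% nominally higher and 21.8% lower.

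Of 20 measured conjugating enzymes, 0 were nominally higher and 5 lower, among them the glutathione transferases Gstp2 (−0.88 ± 0.21) and Gstp1 (−0.74 ± 0.18) and the estrogen sulfotransferase Sult1e1 (−1.43 ± 0.40). That share of lower genes was near the background of 21.8%. Of 3 measured flavin monooxygenases, Fmo2 was nominally higher, with 0.88 ± 0.22.

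Some markers of other cells were nominally higher or lower, and their part in the member results was not tested. The background shares are 5.38% and 21.8%, and the shares of lower adipocyte and hepatocyte markers lie near the latter. Between the groups the sums overlapped for macrophages, T cells, adipocytes and hepatocytes, and did not for skeletal muscle. They also did not for brown and beige adipocytes, with 2551 to 4300 in DIO and 2071 to 2525 in DIO_CR_WR. Nor did they for lymph node and B cells, with 227 to 304 and 185 to 206. Most of that last sum is Cr2 (−0.83 ± 0.21), while Cd79b in the same list had 1.51 ± 0.42. Of 6 macrophage markers, Msr1 (1.26 ± 0.23) and Mrc1 (0.67 ± 0.15) were nominally higher, and the summed signal was 2249 to 4237 in DIO and 3201 to 3532 in DIO_CR_WR. T cell markers were nominally higher for 3 of 5, with sums of 51.4 to 104 and 93.7 to 176. Of 8 adipocyte markers 0 were nominally higher and 2 lower, with sums of 15414 to 18765 and 13128 to 18246, and of 6 skeletal muscle markers 2 were nominally lower, with sums of 11548 to 14120 and 8179 to 11354. Of 11 hepatocyte markers, Fgb, Fga, Cps1 and F2 did not pass the filter, and 2 of the 7 measured were nominally lower, with sums of 199 to 300 and 201 to 403. The lists for brown and beige adipocytes (0 nominally higher and 1 lower of 5), endothelial cells (2 and 0 of 5), fibroblasts and progenitors (1 and 0 of 7) and lymph node and B cells (1 and 1 of 3 measured) complete the set.

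**Figure D5:**
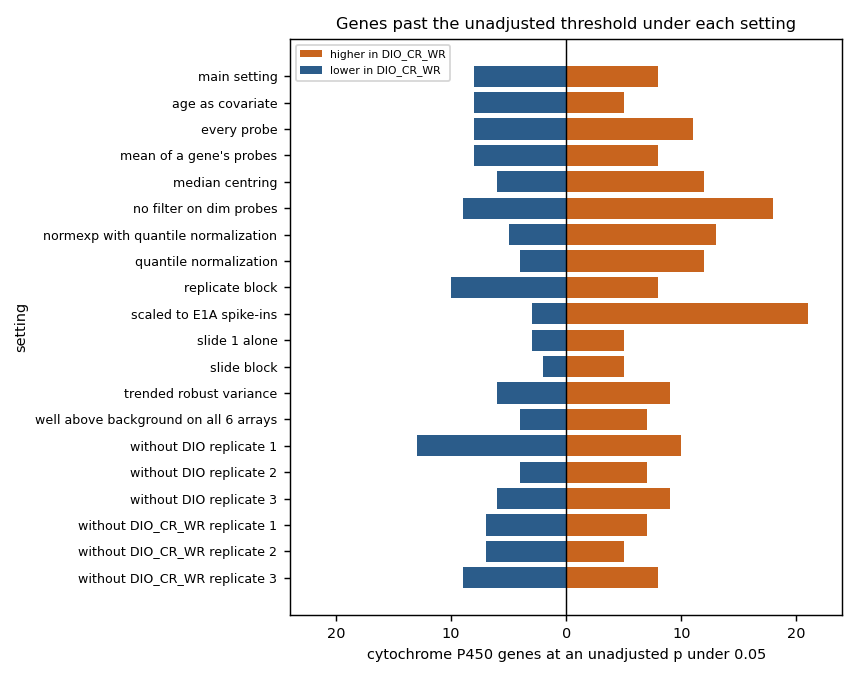
Number of cytochrome P450 genes higher (orange, to the right) or lower (blue, to the left) in DIO_CR_WR at an unadjusted p under 0.05 (horizontal axis) under each processing setting (vertical axis). The split ran from 8 and 8 in the main setting to 21 and 3 with spike-in scaling, 5 and 2 with slide blocked, and 10 and 13 when DIO replicate 1 was left out. The bars stand for 87 members with no filter, 35 with the filter for all 6 arrays, 63 with every probe tested and 54 otherwise.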

How the data were processed

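RNA was measured with 1 array per sample. The files hold intensities of spots as deposited. Background subtraction was done by Feature Extraction, which per the file headers (version 10.7.3.1, against 10.7.1.1 per the submitters' processing notes) applied no normalization between arrays. Flags of 0 or 1 for background, saturation and outliers were deposited by the authors beside them. The series also has a combined file, left out because none of its 18 columns of per-sample values is named after a sample title.

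Computation used R 4.3.3, limma (version 3.58.1) and data.table (version 1.17.8). Control spots, 3671 per array, were removed, flagged outlier spots were treated as missing, and spots of a probe were averaged. Each array's log2 intensity was centred on its 75th percentile over non-control probes. Kept probes were well above background on at least 3 of 6 arrays (any of its spots), and 334 kept probes with an outlier flag were left out, among them a second Cyp20a1 probe. The kept probe with the highest mean stood for a gene, which gave 26203 genes. The test was limma's (lmFit and eBayes), two-sided, with Benjamini-Hochberg adjusted p-values over the 26203 genes and a threshold of 0.05. Values of single probes come from a fit of all probes. On simulated data for this comparison, with 200 of 26203 genes changed by 2 on the log2 scale, 136 were recovered (68%) with 6 false calls. The number of arrays and signal over background limit the precision.

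Replicate numbers were not treated as pairs: deviations from the group mean correlated at −0.01, −0.12 and −0.24 across genes for equal numbers. Members, roles and lists were chosen with earlier results of these data known. Genes named are, per role, the 4 with the smallest p, the brightest one and a few well-known ones, and up to 3 per partner list. Named outside that rule after their values were seen, mainly to describe subfamilies, are Cyp2b9, Cyp2b19, Cyp2c44, Cyp2c70, Cyp2s1, Cyp3a13, Cyp4a14, Cyp4v3, Cyp2d10, Cyp2d11, Cyp2d12, Cyp2d22, Cyp2d26, Cyp2d34, Cyp2j6, Cyp2j9, Cyp2j11, Cyp2j13, Cyp4f13, Cyp4f14, Cyp4f16 and Cyp4f18, and, of the lists, Adipoq, Mc2r, Star, Ch25h, Hsd3b7 and Ephx2. Of the 54 members, 53 matched an accession in the RefSeq gene table, used for current names only. The alternatives tried are background correction, scaling (8 of 10 E1A spike-in probes could be used), filter, choice of probe, variance model, replicate or slide as a block, slide 1 alone, labelled age as a covariate, and each array left out.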

Additional observations from a re-analysis of the deposited data

How the results depend on the processing

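The numbers of nominally higher and nominally lower members (unadjusted p under 0.05) were 8 and 8. They were 13 and 5 with normexp and quantile normalization, 12 and 4 with quantile normalization, 21 and 3 with spike-ins, 18 and 9 of 87 members with no filter (11.9% and 13.9% over all genes), 7 and 4 of 35 members with a filter for all 6 arrays (7.51% and 20.9%), 5 and 2 with slide as a block, 5 and 3 on slide 1 alone, 5 and 8 with age as a covariate, and 8 and 10 with a replicate block, under which 0 members passed an adjusted p under 0.05. Leaving out single arrays gave 5 to 10 higher and 4 to 13 lower, where the shares over all genes were 3.05% to 8.73% and 9.35% to 28.6%. Those shares were 4.59% and 19.6% with age as a covariate and 4.77% and 18.9% with a replicate block. The number past an adjusted p under 0.05 in limma's test was 0, but 2 with the filter for all 6 arrays. Fewer genes were tested under that filter, and 62 of all 19814 passed (0.313%). The 2 members were Cyp7b1 and Cyp4f39, with an adjusted p of 0.0493 each, against 0.109 in the main setting. Without single arrays the number was 0 to 7, the 7 without DIO replicate 1, where 15.4% of all genes passed. That was the only other setting in which Cyp7b1 (0.0258) and Cyp4f39 (0.0283) passed. The member median minus that of all genes, 0.22, was 0.16 with normexp and quantile normalization, 0.18 with quantile normalization, 0.27 with no filter, 0.31 with the filter for all 6 arrays, 0.040 with age as a covariate, and 0.075 to 0.23 without single arrays.

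Signs of log2 fold changes of members named by the rule turned as follows, and the cause was not tested. With spike-ins Cyp2u1 had 0.060, Cyp27a1 0.25, Cyp39a1 0.35, Cyp21a1 0.25, Cyp26b1 0.29 and Cyp2r1 0.42. With normexp and quantile normalization Cyp39a1 had 0.11, and with median centring Cyp2r1 had 0.039. With the mean of a gene's probes Cyp2u1 had 0.0025 and Cyp2r1 0.016. With slide as a block, and on slide 1 alone, Cyp1a1 had −2.31, Cyp21a1 0.076, Cyp26b1 0.0044 and Cyp2r1 0.75. With age as a covariate Cyp2f2 had 1.05, Cyp4a31 −0.029, Cyp4b1 −0.062 and Cyp39a1 0.37. Single arrays turned Cyp39a1 (−0.44 to 0.10), Cyp1a1 (−0.75 to 1.70) and Cyp2r1 (−0.49 to 0.41). Of the other members, Cyp2d10, Cyp2d11, Cyp2d26, Cyp2j9 and Cyp4f18 turned positive with spike-ins, Cyp2d11 and Cyp4f18 also with median centring and with slide as a block (0.30 and 0.38), and Cyp2d11 also with both quantile normalizations. Over all alternatives Cyp7b1 ranged from 0.85 to 1.68, Cyp1b1 from 0.57 to 1.28 and Cyp4f39 from −1.94 to −1.04. Signals near background limit the dim members.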
